A study of Mus musculus with 4 samples.

Results

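The H3K9 methyltransferases and HP1 proteins are the enzymes that methylate lysine 9 of histone H3 and the proteins that read this mark. The 10 genes were chosen by name and function: the methyltransferases Suv39h1, Suv39h2, Setdb1, Setdb2, Ehmt1 and Ehmt2, the HP1 genes Cbx1, Cbx3 and Cbx5, and Trim28, which brings Setdb1 to repeats. They are 10 of the 54842 gene identifiers in the count table, and all 10 were among the 25085 genes with enough counts to be tested. The study asked what happens to heterochromatin transcripts when DNA topoisomerase 2 is inhibited or absent, and this series compared wild-type (wt) mouse embryonic fibroblasts (MEF cells) with MEF cells that lack Top2β, the topoisomerase 2 isoform that is also made in cells that do not divide. Both were untreated cultures, and total RNA without its ribosomal part was sequenced, with 2 libraries for each genotype. The Top2β-null cells were a gift from other laboratories and came from Top2β-null mice, so the loss of Top2β and the origin of the cells cannot be told apart. The labels do not say whether replicates are separate cultures, so p-values measure only the spread between these samples, which may be technical.

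In mouse cells the Suv39h enzymes write the trimethyl mark at pericentric heterochromatin, where the major satellite repeats (MSR) lie. HP1 proteins bind that mark through their chromodomain and recruit further Suv39h enzyme, so that the mark can spread. Setdb1 is drawn to endogenous retroviruses by KRAB zinc finger proteins through Trim28, and the heterodimer of Ehmt1 and Ehmt2 writes mono- and dimethyl marks in euchromatin.

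Total counts per library, genes and repeat families together, lay between 133116830 and 149647278. Top2b, the targeted gene, had 18259 and 18465 normalized counts in wt libraries 1 and 2, against 3879 and 3789 in Top2β-null libraries 1 and 2, a log2 fold change of -2.26. Normalized counts are counts scaled to a common library size, and log2 fold changes are Top2β-null over wt throughout. Among the fibroblast markers, Vim had 196172 raw counts or more in every library and Col1a2 176897 or more, but Dcn had 224 and 231 in the wt libraries and Lum 1 to 4 in every library. Vim also fell in Top2β-null MEF cells, by 0.84 on the log2 scale. Among the leukocyte markers, Tyrobp had 0 raw counts and Ptprc at most 7 in every library, whereas Csf1r had 733 to 987, Cd68 had 1626 and 1748 in wt against 292 in each Top2β-null library, and Itgam had 1 in each wt library against 27 and 29. Among the epithelial markers, Epcam had at most 3 raw counts, whereas Krt8 had 45 and 47 in wt against 6 and 4 in Top2β-null libraries, and Cdh1 had 19 and 24 against 7 and 9. Of these markers, Vim, Col1a2, Lum, Tyrobp, Ptprc, Csf1r, Itgam, Epcam, Krt8 and Cdh1 were picked with their values already known. Of 11 fibroblast markers listed and 10 tested, 4 were higher and 5 lower at an adjusted p below 0.05 (edgeR), beside 32.8% and 33.7% of all genes tested. Past the cut-offs of the study's methods 4 rose, beside 5.52% of all genes (among them Dcn with a log2 fold change of 4.99, Thy1 with 2.07 and Pdgfrb with 1.88). Past them 2 fell, beside 5.25% (Col1a1 with -1.38 and Col3a1 with -1.01). To pass these cut-offs a feature needed an adjusted p under 0.05, more than 1 on the log2 scale in either direction, and over 100 normalized counts on average. The summed fibroblast markers lay at 1312240 and 1336210 normalized counts in wt, against 893319 and 898226 in Top2β-null MEF cells. The part of this difference between the cultures in the results that follow was not tested.

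All 10 members were well counted, with 2480 to 123799 raw counts in a library. With an adjusted p below 0.05 (edgeR), 4 of the 10 were higher in Top2β-null MEF cells (Setdb1, Cbx3, Trim28 and Ehmt1), beside 32.8% of all genes tested, and 3 were lower (Cbx5, Suv39h1 and Cbx1, the last 2 not so when scaled to Hprt), beside 33.7% of all genes. The differences of Suv39h2, Setdb2 and Ehmt2 did not pass. With scaling to Hprt 8 were higher, Suv39h2, Setdb2 and Ehmt2 among them, and 1 was lower, where the median log2 fold change over all genes was 0.36. None of the 10 passed the cut-offs of the study, which 5.52% of all genes passed upward and 5.25% downward. By an unadjusted p below 0.05, 8 of the 10 differed, beside 68.9% of all genes. For 9 of the 10 the groups did not overlap, beside 81.9% of all genes. DESeq2 also put none past the cut-offs of the study. The members' median absolute log2 fold change was 0.22, beside 0.42 over all genes tested. In bulk RNA, fewer cells of a type and less RNA per cell cannot be told apart.

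**Figure D1:**
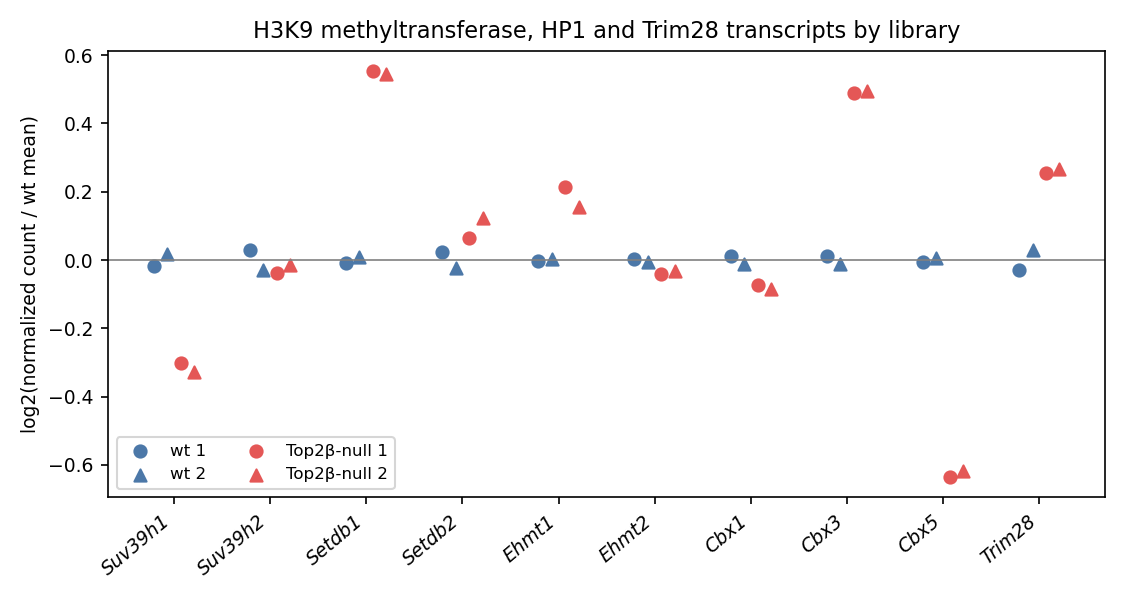
Normalized counts of the 10 genes in each library, as log2 of the ratio to the wt mean of that gene. Blue marks are wt and red marks Top2β-null libraries (circles replicate 1, triangles replicate 2). Setdb1 and Cbx3 lie highest and Cbx5 lowest in the Top2β-null libraries, Suv39h1 lies lower (not so when scaled to Hprt), and Suv39h2 is the 1 gene whose groups overlap.

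The upstream sequences of 4 genes are shown because these had the largest differences in size among the members, 2 upward and 2 downward. Each is the 250 bases before the gene's RefSeq start (assembly GRCm38.p6), 5′ to 3′ on the gene's strand. Where a gene has several starts, the one farthest upstream was used. The gene positions given below are from GENCODE and can begin earlier than the RefSeq start. The windows of Cbx3 and Trim28 lie inside their GENCODE genes, and some others reach into theirs, so upstream refers to the RefSeq start only. Capitals mark matches, on either strand, to a CCAAT box (CCAAT), a GC box (GGGCGG), the core of an ETS site (CCGGAAG) or an E2F site (TTTCCCGC, TTTGGCGC, TTTCGCGC or TTTGCCGC), and in these windows no matches overlap. The windows are chr15:103239853-103240102 (minus strand) for Cbx5, chrX:8074761-8075010 (minus strand) for Suv39h1, chr6:51470366-51470615 (plus strand) for Cbx3 and chr3:95357203-95357452 (minus strand) for Setdb1.
Cbx5: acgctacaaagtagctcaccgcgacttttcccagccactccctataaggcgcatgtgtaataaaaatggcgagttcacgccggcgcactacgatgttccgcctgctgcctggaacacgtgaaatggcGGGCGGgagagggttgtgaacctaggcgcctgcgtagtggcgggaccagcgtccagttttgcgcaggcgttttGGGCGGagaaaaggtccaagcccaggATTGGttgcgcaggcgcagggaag
Suv39h1: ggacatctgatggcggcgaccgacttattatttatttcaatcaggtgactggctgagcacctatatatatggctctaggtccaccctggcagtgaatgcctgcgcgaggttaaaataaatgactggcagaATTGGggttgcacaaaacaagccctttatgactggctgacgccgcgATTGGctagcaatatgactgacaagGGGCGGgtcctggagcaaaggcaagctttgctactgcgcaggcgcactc
Cbx3: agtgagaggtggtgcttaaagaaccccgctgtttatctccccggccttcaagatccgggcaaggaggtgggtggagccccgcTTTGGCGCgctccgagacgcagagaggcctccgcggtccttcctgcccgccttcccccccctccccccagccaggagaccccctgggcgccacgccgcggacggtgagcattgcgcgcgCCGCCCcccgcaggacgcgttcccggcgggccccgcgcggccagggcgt
Setdb1: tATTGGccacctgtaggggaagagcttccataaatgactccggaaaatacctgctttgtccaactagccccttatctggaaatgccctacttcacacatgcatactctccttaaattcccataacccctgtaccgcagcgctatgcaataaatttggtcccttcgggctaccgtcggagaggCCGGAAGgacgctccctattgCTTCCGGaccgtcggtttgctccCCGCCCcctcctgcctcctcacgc
Over the 10 members, 9 of the windows held a GC box, beside 32.7% of 32851 RefSeq windows of the same length. A CCAAT box stood in 4 of 10, beside 33.8% of all windows. Setdb1 alone held the ETS letters (6.91% of all windows), and Cbx3 alone held E2F letters (1.86% of all windows). The members' windows ran from 49.6% to 73.2% G and C and held 11 to 29 CpG, where the medians over all windows were 52.4% and 6. Each of the 4 windows shown held a GC box, and a CCAAT box stood in Cbx5, Suv39h1 and Setdb1. Trim28 and Ehmt1, which also rose, held neither ETS nor E2F letters. A match is a description of the letters and does not show that a factor binds.

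Cbx5 encodes HP1α, the HP1 protein most closely tied to pericentric heterochromatin, and lies at chr15:103191544-103239816 on the minus strand of GRCm38. It had 118720 and 119577 normalized counts in wt libraries 1 and 2, against 76708 and 77668 in Top2β-null libraries 1 and 2. Both Top2β-null libraries lay far below both wt libraries, at 64.8% of the wt mean. The log2 fold change was -0.63 ± 0.027 (SE, n = 2 per genotype, adjusted p = 5.2e-12), the largest drop among the members. A larger absolute log2 fold change was found for 36.0% of all genes tested.

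Cbx3 encodes HP1γ, which is found in euchromatin and over transcribed genes as well as in heterochromatin, and lies at chr6:51470360-51483704 on the plus strand. It had 21007 and 20677 normalized counts in wt libraries 1 and 2, against 29267 and 29374 in Top2β-null libraries 1 and 2. It moved opposite to Cbx5, with both Top2β-null libraries above both wt libraries. The means lay 1.41-fold apart, a log2 fold change of 0.49 ± 0.024 (SE, n = 2 per genotype, adjusted p = 3.3e-11). Annotated processed pseudogenes can take reads of Cbx3, and the 8 that carry its symbol summed to 263 to 355 counts in a library, 1.13% to 1.26% of the count of Cbx3.

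Cbx1 encodes HP1β, which binds the methyl mark in both kinds of chromatin, and lies at chr11:96789127-96808640 on the plus strand. It had 8568 and 8418 normalized counts in wt libraries 1 and 2, against 8077 and 8007 in Top2β-null libraries 1 and 2. The groups did not overlap, but the gap was small beside that of Cbx5 or Cbx3. The log2 fold change was -0.079 ± 0.026 (SE, n = 2 per genotype, adjusted p = 0.0135), and 0.29 with scaling to Hprt. The call was lost with DESeq2 (adjusted p = 0.113), with TMM factors from genes only (adjusted p = 0.0561), with scaling to the total count (adjusted p = 0.787), and without wt replicate 1, Top2β-null replicate 1 or Top2β-null replicate 2 (adjusted p from 0.0562 to 0.189).

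Within each library the HP1 genes were compared with each other, which needs no scaling between libraries. The ratio of Cbx5 to Cbx3 raw counts was 5.65 and 5.78 in wt libraries 1 and 2, against 2.62 and 2.64 in Top2β-null libraries 1 and 2. It was thus lower in both Top2β-null libraries by 1.12 on the log2 scale, where the pooled SD of the replicates was 0.018. The ratio of Cbx3 to Cbx1 was 2.45 and 2.46 in wt libraries 1 and 2, against 3.62 and 3.67 in Top2β-null libraries 1 and 2. With 2 libraries per genotype no exact permutation test of such a ratio can give a p below 0.33, so these ratios stand with their spread alone.

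Per kilobase of exons, Cbx5 made up 70.8% ± 0.35 (SD, n = 2) of the summed HP1 level in wt, against 55.8% ± 0.21 (SD, n = 2) in the Top2β-null cells. Cbx3 made up 18.6% ± 0.21 (SD, n = 2) in wt, against 31.9% ± 0.076 (SD, n = 2) in the Top2β-null cells. The share of Cbx1 was 10.6% ± 0.13 (SD, n = 2) and 12.3% ± 0.14 (SD, n = 2), but 14.7% and 15.3% per length of the longest transcript. The HP1 make-up was shifted from Cbx5 towards Cbx3, and Cbx5 was still the most abundant of the 3 by this length. Counted per length of the longest transcript, Cbx3 held 45.2% and Cbx5 39.5% of the HP1 level in Top2β-null MEF cells, so which gene leads there depends on the length used. The summed level was 130.0 and 129.4 CPM (a library's counts scaled to a common total) per kilobase in wt libraries 1 and 2, against 110.9 and 112.5 in Top2β-null libraries 1 and 2, a log2 ratio of -0.22. That ratio was -0.058 with the longest transcript in place of all exons.

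**Figure D2:**
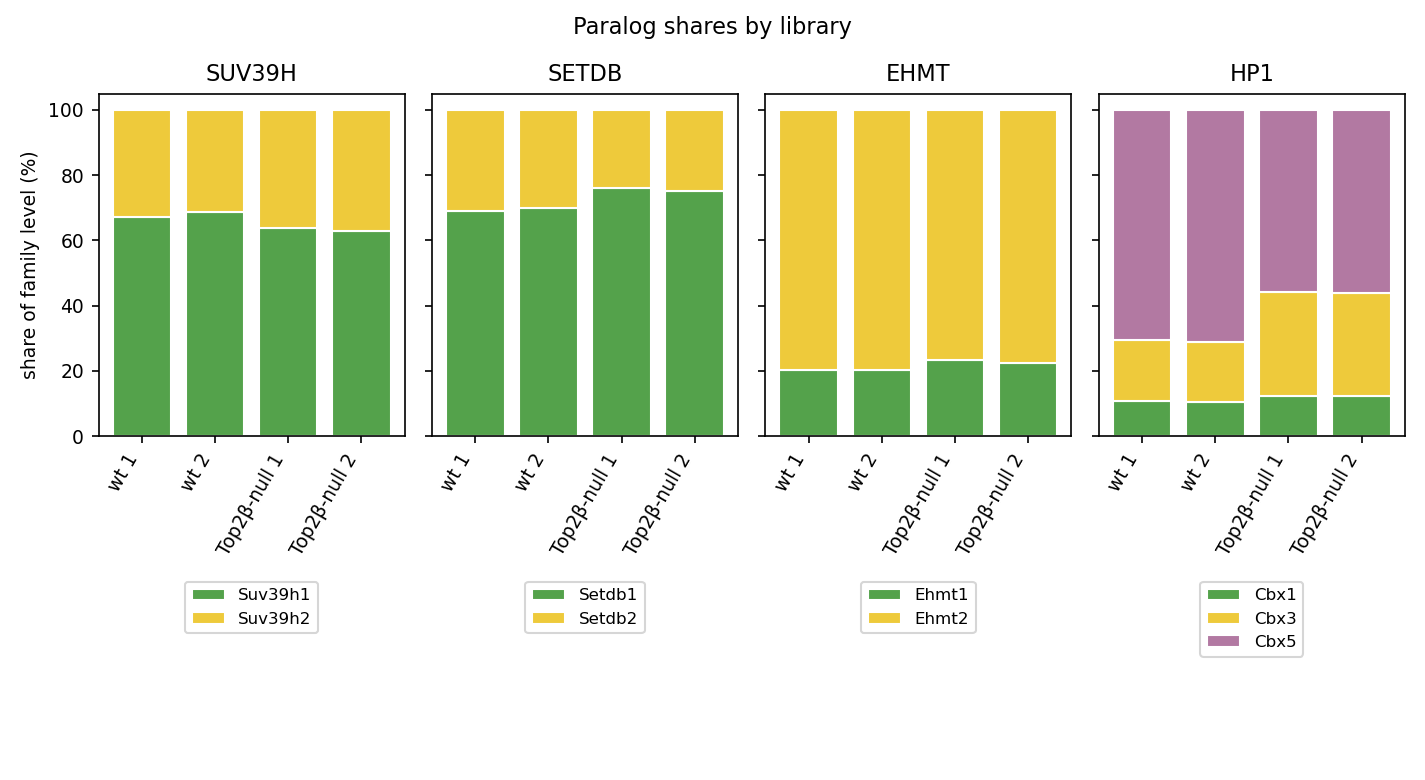
Share of each paralog in the summed level of its family, in percent of counts per kilobase of exons, for each of the 4 libraries. In the HP1 panel the share of Cbx5 goes from 70.8% in wt to 55.8% in Top2β-null MEF cells and that of Cbx3 from 18.6% to 31.9%, and the 3 enzyme families shift by 2.6 to 6.3 percentage points.

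Suv39h1, on the X chromosome at chrX:8061171-8074760 (minus strand), is with Suv39h2 the enzyme that trimethylates H3K9 at the major satellites. It had 7736 and 7937 normalized counts in wt libraries 1 and 2, against 6362 and 6248 in Top2β-null libraries 1 and 2. Both Top2β-null libraries lay below both wt libraries, and the mean was 80.5% of that in wt. The log2 fold change was -0.31 ± 0.027 (SE, n = 2 per genotype, adjusted p = 4.0e-08), and 0.055 with scaling to Hprt. An antisense gene, Gm14820, shares 767 bases with the exons of Suv39h1, 14.6% of them, and had a log2 fold change of -0.29 (0.075 with scaling to Hprt). The library kit keeps the strand, but the strand setting of the counting is not given in the sources used here, so reads of both may have been mixed.

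Suv39h2, at chr2:3455815-3475031 (minus strand), showed no such gap. It had 3166 and 3045 normalized counts in wt libraries 1 and 2, against 3024 and 3071 in Top2β-null libraries 1 and 2, and the groups overlapped. The log2 fold change was -0.027 ± 0.039 (SE, n = 2 per genotype, adjusted p = 0.570), and 0.023 without Top2β-null replicate 1. With scaling to Hprt it was 0.34 and passed (adjusted p = 1.4e-07). Its exons share 357 bases, 8.10% of them, with Dclre1c on the other strand, whose log2 fold change was -0.34 (0.031 with scaling to Hprt), and 83 bases with Gm13184, which did not pass (0.19, adjusted p = 0.363). Within a library the ratio of Suv39h1 to Suv39h2 counts was 2.44 and 2.61 in wt and 2.10 and 2.03 in Top2β-null MEF cells. Suv39h1 kept the larger share of the pair per kilobase of exons, at 67.9% ± 1.0 (SD, n = 2) in wt, against 63.4% ± 0.55 (SD, n = 2) in the Top2β-null cells.

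Setdb1, at chr3:95323525-95357202 (minus strand), trimethylates H3K9 at endogenous retroviruses and had the largest upward difference among the members. It had 9416 and 9517 normalized counts in wt libraries 1 and 2, against 13894 and 13804 in Top2β-null libraries 1 and 2. The replicates of each genotype nearly coincided, and the means lay 1.46-fold apart. The log2 fold change was 0.55 ± 0.025 (SE, n = 2 per genotype, adjusted p = 8.7e-12), and 40.7% of all genes tested had a larger one in absolute size. Its exons share 75 bases with Cers2 on the other strand, which had a log2 fold change of -0.23 (0.14 with scaling to Hprt). They share 249 bases, 3.63% of them, with Gm37500, also on the other strand, which had 171 to 285 raw counts and a log2 fold change of 0.58 (adjusted p = 0.00093), the same way as Setdb1.

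Trim28, at chr7:12999114-13031035 (plus strand), encodes the corepressor KAP1, which carries Setdb1 to its targets. It had 29701 and 30931 normalized counts in wt libraries 1 and 2, against 36201 and 36485 in Top2β-null libraries 1 and 2. It rose with Setdb1 but less, 1.20-fold, with a log2 fold change of 0.26 ± 0.027 (SE, n = 2 per genotype, adjusted p = 3.0e-07). The ratio of Setdb1 to Trim28 counts was 0.317 and 0.308 in wt libraries 1 and 2, against 0.384 and 0.378 in Top2β-null libraries 1 and 2.

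Setdb2, a related protein that is expressed at lower levels, lies at chr14:59402009-59440884 (minus strand), on the chromosome of Top2b and 43.0 Mb from it. It had 2503 and 2424 normalized counts in wt libraries 1 and 2, against 2578 and 2683 in Top2β-null libraries 1 and 2. The groups did not overlap, but the log2 fold change, 0.095 ± 0.042 (SE, n = 2 per genotype), missed the threshold (adjusted p = 0.0620). It passed without Top2β-null replicate 1 (log2 fold change 0.16, adjusted p = 0.00757) and with TMM factors from genes only (adjusted p = 0.0294). Setdb1 took a larger share of the pair in Top2β-null MEF cells, 75.7% ± 0.61 (SD, n = 2) against 69.4% ± 0.64 (SD, n = 2) in wt.

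Suv39h1 and Setdb1, the 2 trimethylating enzymes that passed the test, were compared within each library. The ratio of Setdb1 to Suv39h1 counts was 1.22 and 1.20 in wt libraries 1 and 2, against 2.18 and 2.21 in Top2β-null libraries 1 and 2. The difference was 0.86 on the log2 scale with a pooled SD of 0.014. This pair was chosen for its opposite differences, so the ratio is a description only.

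Ehmt1 and Ehmt2, also called GLP and G9a, form 1 complex. Ehmt1, at chr2:24789928-24919614 (minus strand), had 7461 and 7497 normalized counts in wt libraries 1 and 2, against 8665 and 8333 in Top2β-null libraries 1 and 2. It rose in both, with a log2 fold change of 0.18 ± 0.027 (SE, n = 2 per genotype, adjusted p = 1.9e-05), and shares 21 bases of exon with Gm37139 on the same strand (log2 fold change 0.30). Ehmt2, at chr17:34898469-34914052 (plus strand), had 19994 and 19874 normalized counts in wt libraries 1 and 2, against 19357 and 19505 in Top2β-null libraries 1 and 2. Its groups did not overlap, but its log2 fold change of -0.037 ± 0.024 (SE, n = 2 per genotype) did not pass (adjusted p = 0.193), and changed sign without Top2β-null replicate 1 (0.0078), with scaling to the total count (0.033) and with scaling to Hprt, where it passed (0.33, adjusted p = 6.5e-10). Ehmt2 remained the more abundant partner per kilobase of exons, with 79.8% ± 0.12 (SD, n = 2) of the pair in wt, against 77.2% ± 0.58 (SD, n = 2) in the Top2β-null cells.

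Levels of different genes were set side by side as CPM per kilobase of exons. In wt MEF cells the order was Cbx5 (91.8 ± 0.13, SD, n = 2), Trim28 (50.6 ± 1.3), Ehmt2 (25.2 ± 0.20), Cbx3 (24.1 ± 0.36), Cbx1 (13.8 ± 0.22), Suv39h1 (10.3 ± 0.15), Setdb1 (9.58 ± 0.037), Ehmt1 (6.39 ± 0.0017), Suv39h2 (4.88 ± 0.15) and Setdb2 (4.22 ± 0.11). Each neighbouring pair in this order was separated in both libraries. In Top2β-null MEF cells Trim28 (63.6 ± 0.68, SD, n = 2) lay above Cbx5 (62.4 ± 0.87) by little more than the spread between replicates, Cbx3 (35.6 ± 0.28) had passed Ehmt2 (25.8 ± 0.27), and Setdb1 (14.7 ± 0.0086) had passed Cbx1 (13.7 ± 0.014) and Suv39h1 (8.71 ± 0.067). Setdb2 remained the lowest in both genotypes by this length (4.73 ± 0.16 in Top2β-null MEF cells), and by the longest transcript Suv39h2 was lowest. These places depend on the length: per longest transcript Cbx3 (49.4) already lay above Ehmt2 (34.3) in wt, and Setdb1 (17.8) stayed below Cbx1 (24.6) in Top2β-null MEF cells. By that length Trim28 (81.5) lay well above Cbx5 (63.8) in Top2β-null MEF cells, with Cbx3 (73.0) between them. The wt level of Setdb2 was above that of 67.5% of 25072 genes, and the wt level of Cbx5 was above that of 98.4%. The filter for these genes was low, at 10 counts in 2 libraries.

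**Figure D3:**
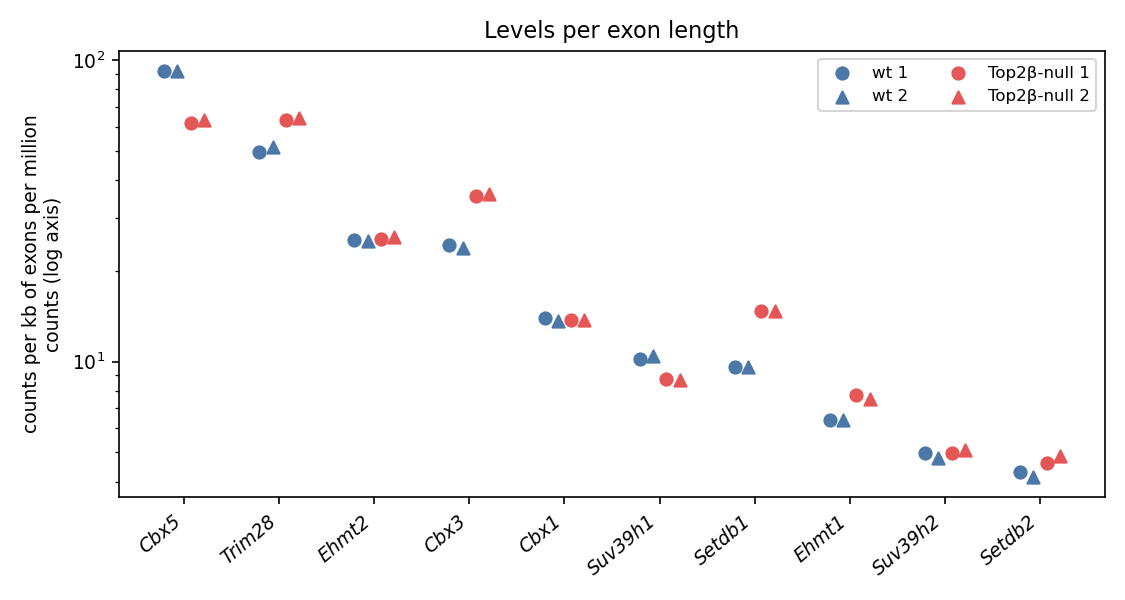
CPM per kilobase of exons for each gene and library on a logarithmic axis, ordered by the wt mean. Blue marks are wt and red marks Top2β-null libraries (circles replicate 1, triangles replicate 2). In Top2β-null libraries Cbx5 comes close to Trim28, Cbx3 lies above Ehmt2, and Setdb1 lies above Cbx1.

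The starts of 3 members lie within 1 kb of the start of a gene that runs the other way, in a head-to-head pair. These neighbours were looked up after the values of the members had been seen, and only protein-coding neighbours were kept. Of all genes tested, 32.8% were higher and 33.7% lower at an adjusted p below 0.05 (edgeR). How often other such pairs move the same way was not counted. Hnrnpa2b1, an RNA-binding protein gene whose start lies 722 bp from that of Cbx3, had 58932 and 59722 normalized counts in wt libraries 1 and 2, against 83755 and 79607 in Top2β-null libraries 1 and 2. It rose, as Cbx3 did, with a log2 fold change of 0.46 ± 0.029 (SE, n = 2 per genotype, adjusted p = 8.0e-10) beside 0.49 for Cbx3. Hnrnpa1, a gene of the same family whose start lies 545 bp from that of Cbx5, had 124086 and 126925 normalized counts in wt libraries 1 and 2, against 85967 and 84767 in Top2β-null libraries 1 and 2. It fell, as Cbx5 did, with a log2 fold change of -0.56 ± 0.028 (SE, n = 2 per genotype, adjusted p = 3.5e-11) beside -0.63 for Cbx5. The genes of the third pair had opposite signs. Cab39l, whose start lies 83 bp from that of Setdb2, had 5154 and 5216 normalized counts in wt libraries 1 and 2, against 4251 and 4319 in Top2β-null libraries 1 and 2. Its log2 fold change was -0.27 ± 0.031 (SE, n = 2 per genotype, adjusted p = 7.8e-07) where that of Setdb2 was 0.095, and with scaling to Hprt it was 0.094.

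**Figure D4:**
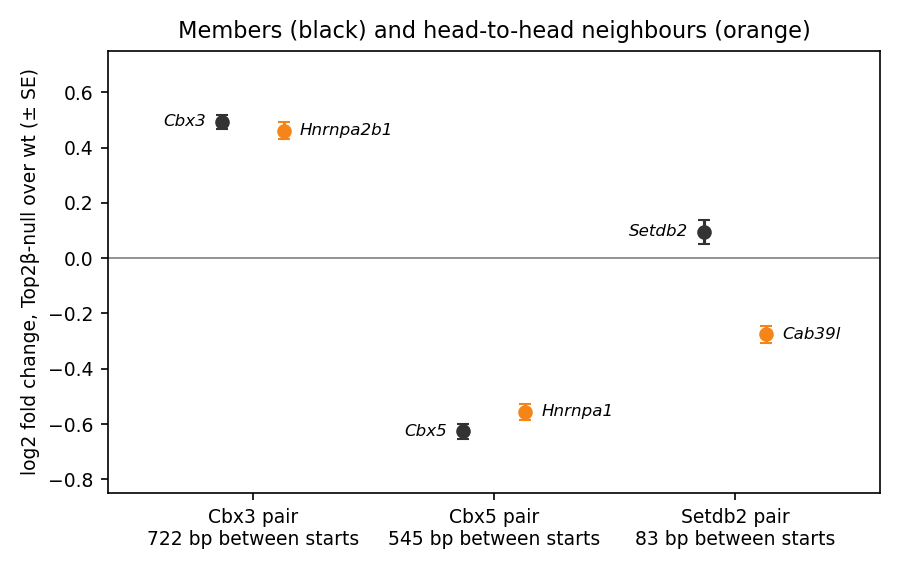
Log2 fold change of each member (black) and of its head-to-head neighbour (orange), Top2β-null over wt, with bars of 1 SE on each side (n = 2 per genotype). Both genes of the Cbx3 pair lie near 0.5 and both of the Cbx5 pair near -0.6, while Setdb2 and Cab39l lie on either side of 0 (both above 0 with scaling to Hprt).

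Other genes of the pathway were taken as whole lists. Of 11 cofactors of the H3K9 methyltransferases, 7 were higher, beside 32.8% of all genes, 2 were lower, beside 33.7%, and 2 did not pass (10 higher and 1 lower with scaling to Hprt). Their median log2 fold change was 0.15, beside -0.0058 over all genes tested. Cdyl2, a chromodomain protein, was the 1 cofactor past the cut-offs of the study, with 433 and 406 normalized counts in wt libraries 1 and 2, against 903 and 873 in Top2β-null libraries 1 and 2 (log2 fold change 1.08, adjusted p = 6.9e-10). The genes and repeat families named from here on without passing the cut-offs of the study were picked with their values already known. Uhrf1, which binds methylated H3K9 and hemimethylated DNA, had 41212 and 41126 normalized counts in wt libraries 1 and 2, against 27044 and 27583 in Top2β-null libraries 1 and 2, a log2 fold change of -0.59 (adjusted p = 4.3e-12). Smarcad1, a remodeler that works with Trim28, had 8908 and 8795 normalized counts in wt libraries 1 and 2, against 13151 and 13428 in Top2β-null libraries 1 and 2, a log2 fold change of 0.59 (adjusted p = 5.4e-12). Of 3 further methyltransferases to which H3K9 activity has been ascribed, Mecom rose slightly (log2 fold change 0.13), Prdm2 did not pass, and Prdm16 had 1 and 0 raw counts in wt libraries 1 and 2, against 41 and 44 in Top2β-null libraries 1 and 2.

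Of 11 partners of HP1 proteins, 8 were higher, beside 32.8% of all genes, 2 were lower, beside 33.7%, and 1 did not pass (9 higher and 0 lower with scaling to Hprt). Their median log2 fold change was 0.39. Lrif1, an HP1-binding protein, had 2649 and 2603 normalized counts in wt libraries 1 and 2, against 4363 and 4363 in Top2β-null libraries 1 and 2 (log2 fold change 0.73, adjusted p = 2.7e-11). Chd4, the remodeler of the NuRD complex, had a log2 fold change of 0.62, and Lbr, the lamin B receptor that tethers heterochromatin to the nuclear envelope, had 0.42. Both subunits of the CAF-1 chaperone on the list went apart: Chaf1a, which binds HP1, fell by 0.38 on the log2 scale and Chaf1b rose by 0.40. Sgo1, which protects cohesion at centromeres, fell by 0.40, and with scaling to Hprt neither Chaf1a (-0.014) nor Sgo1 (-0.036) passed. Kmt5b and Kmt5c, which methylate H4K20, had log2 fold changes of 0.28 and 0.41.

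Of 11 H3K9 demethylases 10 were tested, of which 4 were higher and 6 lower, beside 32.8% and 33.7% of all genes, with a median log2 fold change of -0.091. With scaling to Hprt 7 were higher and 1 lower. Jmjd1c had 22104 and 22344 normalized counts in wt libraries 1 and 2, against 14684 and 14560 in Top2β-null libraries 1 and 2, a log2 fold change of -0.60 (adjusted p = 2.0e-12). Kdm7a lay as far on the other side, with 462 and 439 normalized counts in wt libraries 1 and 2, against 699 and 664 in Top2β-null libraries 1 and 2 and a log2 fold change of 0.60 (adjusted p = 1.8e-06).

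Because Uhrf1 and the CAF-1 genes are known to be expressed with the cell cycle, proliferation markers were counted beside them. Of 15 markers 9 were higher, 4 were lower and 2 did not pass, beside 32.8% higher and 33.7% lower of all genes, and their median log2 fold change was 0.070. With scaling to Hprt 14 were higher and 0 lower. Their summed normalized counts were 463887 and 475632 in wt libraries 1 and 2, against 496611 and 498153 in Top2β-null libraries 1 and 2. The summed level was thus somewhat higher in Top2β-null MEF cells, and abundant markers weigh most in it. The 4 lower markers were Pcna (log2 fold change -0.33), Bub1 (-0.26), Cdk1 (-0.25) and Mcm3 (-0.14). The part of proliferation in the differences of Cbx5, Suv39h1 and Uhrf1 was not tested.

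Of 12 repeat families that are silenced through H3K9 methylation, 10 were higher, beside 27.6% of all repeat families tested, and none was lower, beside 12.5% (0 also by an unadjusted p below 0.05 and with DESeq2). The lower count was not stable: IAPLTR1a_Mm passed as lower without wt replicate 1 (log2 fold change -0.12), and it (-0.079) and MERVL-int (-0.067) did without Top2β-null replicate 1, and 8 to 10 families were higher without 1 library. Their median log2 fold change was 0.13, beside 0.041 over all repeat families. MMERVK10C-int, an endogenous retrovirus, had 14656 and 15129 normalized counts in wt libraries 1 and 2, against 32631 and 31269 in Top2β-null libraries 1 and 2, and was the 1 family past the cut-offs of the study (log2 fold change 1.10, adjusted p = 6.6e-15). ETnERV-int had a log2 fold change of 0.75 and MMETn-int of 0.48. Other listed retroviral families moved less: IAPLTR1_Mm and IAPLTR2_Mm had 0.13 each, and IAPLTR1a_Mm (-0.056) and MERVL-int (-0.042) did not pass. Setdb1 and Trim28 transcripts were also higher in these cells, and a link to the retroviral families was not tested. IAPEz-int, another retrovirus, moved little (log2 fold change 0.088, adjusted p = 0.0150), and this call was lost without either wt library (adjusted p = 0.0959 and 0.0622). GSAT_MM, the MSR family that the Suv39h enzymes cover, had a log2 fold change of 0.65. L1Md_A, a LINE family among the 10 higher, had only 0.088 (adjusted p = 0.0398, edgeR). Without 1 library its log2 fold change ran from 0.063 (without Top2β-null replicate 1) to 0.17 (without Top2β-null replicate 2). From RNA sequencing of these genotypes the paper reports a modest MSR rise and no significant difference for L1Md_A.

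**Figure D5:**
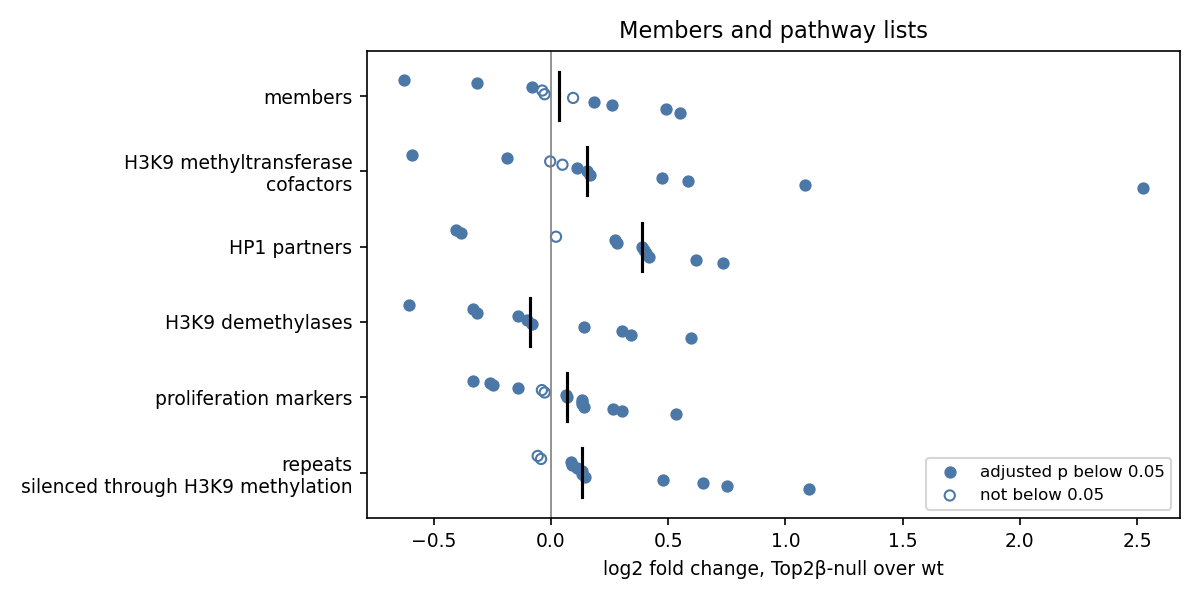
Log2 fold changes, Top2β-null over wt, of the 10 members, 3 pathway lists, the proliferation markers and the repeat families. Filled points have an adjusted p below 0.05 (edgeR), open points do not, and black lines are list medians. The members spread about 0 with a median of 0.034, the HP1 partners centre at 0.39 and the repeat families at 0.13.

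Scaling decided the sign of some small differences. TMM scaling put the median log2 fold change over all genes at -0.0058, whereas it was 0.36 when Hprt, which the study used as reference in RT-qPCR, set the scale. Hprt itself had 10578 and 10424 normalized counts in wt libraries 1 and 2, against 8131 and 8130 in Top2β-null libraries 1 and 2, so it fell by 0.37 on the log2 scale. With scaling to Hprt the log2 fold changes were -0.26 for Cbx5, 0.92 for Setdb1, 0.86 for Cbx3, 0.63 for Trim28 and 0.55 for Ehmt1. Since such a scaling shifts all genes alike, they are also given relative to the median gene, where they were -0.62 for Cbx5, -0.31 for Suv39h1, 0.55 for Setdb1, 0.50 for Cbx3, 0.27 for Trim28 and 0.19 for Ehmt1.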

How the data were processed

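The authors depleted ribosomal RNA, sequenced stranded paired-end libraries, used Trim Galore! for trimming, STAR for alignment to mm10 (multiply aligned reads kept) and TEtranscripts for counting. The deposited table holds raw counts of genes and repeat families. The mode and strand setting of TEtranscripts are not given in the sources used here.

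Features reaching 10 counts in 2 or more libraries were tested with edgeR 4.0.16 (quasi-likelihood, TMM factors over genes and repeats, genotype only, 2 libraries per genotype, Benjamini-Hochberg adjustment over 26566 features). The SE was obtained by dividing the size of the log2 fold change by the root of F. Normalized counts refer to the effective library sizes' geometric mean. Replicates were farther apart than counting noise allows (chi-square over its degrees of freedom: wt 3.65, Top2β-null 5.07). Positions and lengths come from GENCODE M21 (GRCm38), and 54495 of 54842 identifiers matched. The members and lists were chosen with earlier results of these data known. Named are the members, Top2b, Hprt, list genes past the study's cut-offs (at most 3 in each direction), genes overlapping members' exons and pseudogenes with a member's symbol, and others were chosen after their values were known. Lists of leukocyte, epithelial and endothelial markers served to check the cells: of 10, 6 and 6 genes, 4, 2 and 6 had enough counts, and past the cut-offs were Cd68 (log2 fold change -2.49) and Kdr (1.54). Alternatives were DESeq2 1.42.0, other scalings and filters, a fit without repeats, the replicate number as a block, and leaving out each library.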

Additional observations from a re-analysis of the deposited data

How the results depend on the processing

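The directions and calls of Setdb1, Ehmt1, Cbx3, Cbx5 and Trim28 held in all 12 alternative fits. Over all members, 64 of 80 values from fits with all libraries kept direction and side of the threshold, 5 lost the call, 5 gained it and 6 changed sign, and of 40 values from fits without 1 library the numbers were 34, 3, 1 and 2. Changes of sign with scaling to Hprt were Suv39h1 (0.055), Suv39h2 (0.34), Ehmt2 (0.33), Cbx1 (0.29), Cab39l (0.094), Gm14820 (0.075), Dclre1c (0.031) and Cers2 (0.14), and 8 members were then higher and 1 lower. Scaling to the total count changed the sign of Suv39h2 (0.043) and Ehmt2 (0.033). Cbx1 lost its call with DESeq2 (-0.071), TMM factors from genes only (-0.060), the total count (-0.0089), no filter on low counts (-0.062) and genes fitted without repeats (-0.060). Setdb2 passed with TMM factors from genes only (0.11), the total count (0.16), Hprt (0.46), no filter (0.11) and genes fitted without repeats (0.11). Without 1 library the ranges were -0.069 to 0.023 for Suv39h2, -0.056 to 0.0078 for Ehmt2, -0.11 to -0.046 for Cbx1 and 0.057 to 0.16 for Setdb2. The changes in share, in percentage points, were -3.62 for Suv39h1, 0.514 for Cbx1, 15.8 for Cbx3 and -16.3 for Cbx5 per longest transcript, and 4.69 for Setdb1, -3.15 for Ehmt2, 1.3 for Cbx1, 11.6 for Cbx3 and -12.9 for Cbx5 from raw counts. The log2 ratio of the summed HP1 level was -0.058 per longest transcript and -0.28 with TMM-normalized counts, the latter chosen after seeing the data. The scaling alternatives differ by construction in their size factors, and for the other changes the cause was not tested. Of 262 list counts under these alternatives, 22 changed by over 1.5 times.

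Same-numbered replicates did not deviate together (correlation 0.020 over 17952 features). This does not show whether same-numbered libraries shared a preparation, which the labels do not say. With a replicate block the log2 fold change of Cbx5 was -0.63 and that of Setdb1 0.55, and no member's call changed. The members had at least 2480 counts in every library, and the part of depth was not tested. Setdb2 and Suv39h2, with the fewest counts, had the largest SE among the members (0.042 and 0.039). Having 2 libraries per genotype limited the spread that could be estimated.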
